A study of Homo sapiens with 18 samples.

Results

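The response to WDR5 knockdown was examined in BrM3, a derivative of the human triple-negative breast cancer line MDA-MB-231 that metastasizes readily to the brain. Its 6 libraries, 3 with a control hairpin (shCtrl) and 3 with a hairpin against WDR5 (shWDR5), were taken out of 18 by their titles and by the count columns that carry the same line and hairpin, and every gene with enough counts was then tested. The other 12 libraries came from the same pair of hairpins in LM2 and BoM, the lung and bone derivatives of MDA-MB-231. All of the cells, controls included, carried a hairpin in the inducible lentiviral vector pINDUCER10 and received doxycycline at 1 μg/mL for 3 days, and the replicates of a line were harvested at different passages. According to the study's methods BrM3 was obtained by a further round of selection in vivo from BrM2, and the cell line field of the labels reads BrM2 for these libraries. The infected cells were selected with puromycin or blasticidin, and no cloning step is described. A single hairpin against WDR5 was sequenced, so that an effect of WDR5 loss and an effect of that hairpin cannot be told apart.

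WDR5 is a WD40-repeat scaffold protein. It belongs, together with RBBP5, ASH2L and DPY30, to the core of the KMT2 complexes that methylate lysine 4 of histone H3 at active promoters and enhancers, and it is also a subunit of the NSL histone acetylase complex. A further surface of the protein binds MYC, and ribosomal protein genes are among the genes at which WDR5 has been found on chromatin in several cancer lines. RNA-seq of polyadenylated RNA reports the messenger RNA pool relative to its own total, and in a cell population fewer transcribing cells and less RNA per cell cannot be told apart.

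The knockdown rests on short target sites in the WDR5 coding sequence. The study's list of hairpins holds 2 against WDR5, of which the first was the one used in its screen. Which of them is the hairpin of these libraries is not given in the sources used here, so both sites are shown, as they lie in the WDR5 messenger RNA with 20 bases on either side. The 19 bases of the hairpin are in capitals.
WDR5, screened hairpin, chr9:134157903-134157921, exon 14, plus strand: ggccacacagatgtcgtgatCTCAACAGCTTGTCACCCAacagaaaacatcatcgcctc
WDR5, other hairpin, chr9:134156564-134156582, exon 13, plus strand: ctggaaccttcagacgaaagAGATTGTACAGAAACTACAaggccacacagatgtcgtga
Pseudogene ENSG00000224097, screened hairpin, chr4:39481376-39481394, plus strand: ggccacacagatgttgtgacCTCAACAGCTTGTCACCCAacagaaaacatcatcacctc
Both WDR5 sites lay within coding exons of GRCh38. The screened hairpin also matched all 19 bases of a transcribed processed pseudogene of WDR5 on chromosome 4, whose flanking bases differ from those of WDR5. This pseudogene carried between 0 and 6 reads in each of the 6 BrM3 libraries and was not tested.

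WDR5 itself was checked first against the labels. Levels are given as CPM, the count of a gene relative to its library total, after the library totals had been scaled by TMM, which sets the bulk of genes equal between libraries, and adjusted p-values are corrected over all genes tested in 1 fit of the 18 libraries. WDR5 (chr9:134135365-134159968, plus strand) stood at 85.5, 93.3 and 79.4 CPM in the shCtrl libraries and 20.8, 21.3 and 23.5 CPM in the shWDR5 libraries. The groups did not overlap, and WDR5 RNA in the knockdown cells was 25.4% of the control level (log2 fold change -1.97 ± 0.14 (SE), adjusted p = 4.2e-07, edgeR's quasi-likelihood test with Benjamini-Hochberg adjustment). The call was kept in 16 of 16 alternative analyses. RBBP5, ASH2L and DPY30 of the core complex were not called. WDR5B, a paralog of WDR5, was not called either (-0.43, adjusted p = 0.056), but was lower without replicate 1 of shWDR5 (-0.49, adjusted p = 0.047) and with GC offsets, which remove the dependence of each library on the GC content of genes (-0.48, adjusted p = 0.0096). Among 17 KMT2 and SETD1 complex genes 1 was lower, PAXIP1, a subunit of the KMT2C and KMT2D complexes (-0.31). This is 5.88% of the list, under the 7.9% of all genes tested. Among 8 NSL complex genes 1 was higher, KANSL2 (0.32), which is 12.5% beside 2.87% of all genes but rests on 1 gene. The calls of PAXIP1 and KANSL2 were kept in 10 and 9 of the 16 alternatives, and without replicate 1 of shWDR5 2 NSL genes were higher.

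Total counts in BrM3 ran from 36989874 to 47146239 in shCtrl and from 17485841 to 54647895 in shWDR5, against 17485841 to 119667013 over all 18 libraries. Replicate 1 of shWDR5 was the shallowest of the 18 and stood apart from the other shWDR5 replicates. The first 2 principal components of the 6 libraries carried 53.7% and 32.9% of the variance, and the first separated shCtrl from shWDR5. The second placed replicate 1 of shWDR5 at 19.67 and its fellow replicates at -17.21 and -16.83. It also spread the controls, with shCtrl replicates 1, 2 and 3 at 13.87, -6.54 and 7.04. Counts per gene differed between replicate 1 of shWDR5 and the other shWDR5 replicates by a chi-square of 41.6 and 51.0 per gene. This value was 5.15 between those other replicates and 11.4 to 34.0 among the shCtrl libraries. The markers of the line were in place: VIM, CD44, EGFR, AXL, CAV1, KRT8 and KRT18 lay between 271 and 1996 CPM, while of 7 hormone receptor and luminal markers ESR1, PGR, CDH1 and FOXA1 were under 1 CPM in every library. The other 3 were detected, ERBB2 at 54.5 to 71.5 CPM, and GATA3 and EPCAM between 5 and 10 CPM. CD3E and CD3D, which define T cells, and OLIG2, of the oligodendrocyte lineage, were at 0 in all 6. Other immune and neural markers were detected, PTPRC at 0.64 to 1.03 CPM, CD14 at 0.50 to 2.44, GFAP at 0.96 to 3.19 and SNAP25 at 1.9 to 2.7.

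Of 12081 genes tested, 347 (2.87%) were higher and 954 (7.9%) lower in shWDR5, 10.8% in all. The fall was the more common direction and also the larger one. Called genes that fell had a median log2 fold change of -0.68 and those that rose a median of 0.39, while the median over all genes tested was -0.005. Only 5 called genes (0.0414%) rose by at least 1 on the log2 scale, against 185 (1.53%) that fell by as much. The sets also differed in level. The genes that rose had a median of 90.0 CPM in shCtrl and those that fell a median of 9.71 CPM, with 31.4 CPM over all genes tested. Without replicate 1 of shWDR5 the counts were 442 higher (3.66%) and 988 lower (8.18%). Leaving out any other library gave fewer calls, 146 higher and 637 lower without shCtrl replicate 1, 146 and 626 without shCtrl replicate 2, 118 and 618 without shCtrl replicate 3, 161 and 600 without shWDR5 replicate 2, and 143 and 592 without shWDR5 replicate 3. The share of calls that were lower was 73.3% in the joint fit. It was 55.0% when the 6 libraries were analysed alone with DESeq2, 59.8% with GC content and the replicate number both in the fit, and 84.0% without shCtrl replicate 3, so the falls outnumbered the rises in each of these.

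**Figure D1:**
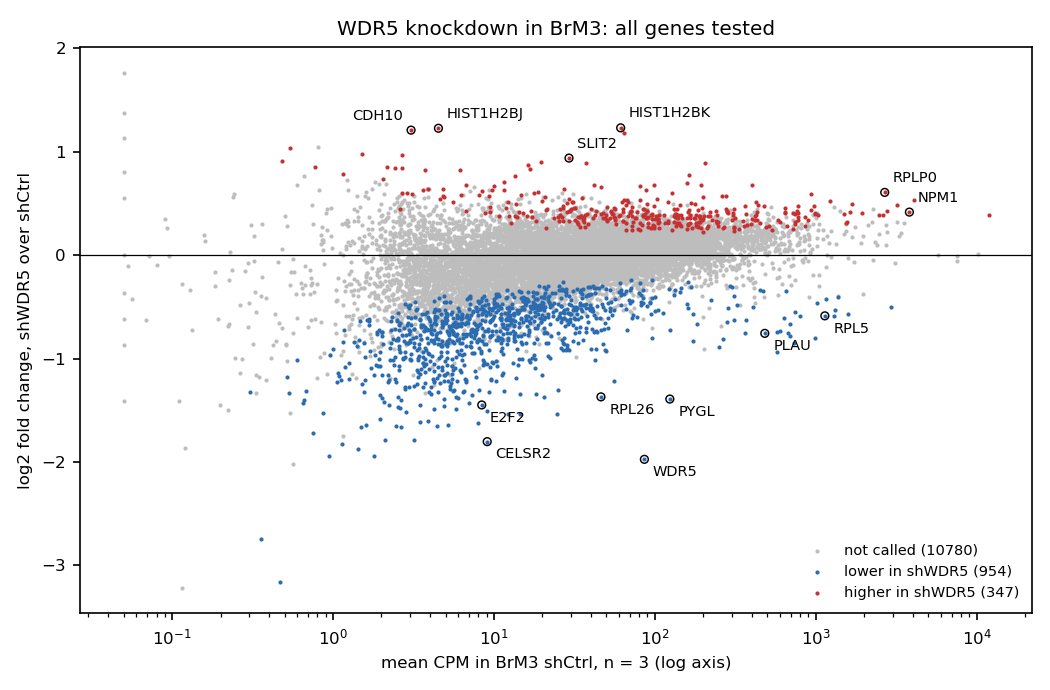
Each point is 1 of 12081 genes, with its mean CPM in BrM3 shCtrl (n = 3, log axis, values below 0.05 drawn at 0.05) against its log2 fold change in shWDR5 over shCtrl, in red where called higher (347) and in blue where called lower (954). The blue points lie mostly at the low and middle levels (median 9.71 CPM) and the red points farther right (median 90.0 CPM), with WDR5 (-1.97) below the other genes near its level.

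The largest falls were taken among called genes with at least 1 CPM in the higher group and groups that did not overlap. Over all called genes the lowest log2 fold change was -3.16. The genes chosen encode proteins of many kinds. Over all genes tested 19.7% had every shWDR5 library below every shCtrl library and 15.8% had every one above, and the 10 largest falls and 10 largest rises are among those. CELSR2, an atypical cadherin of the planar cell polarity pathway, stood at 8.13, 10.00 and 9.11 CPM in the shCtrl libraries and 1.94, 3.09 and 2.62 CPM in the shWDR5 libraries. Its level in the knockdown cells was 28.1% of that in the controls (log2 fold change -1.80 ± 0.18 (SE), adjusted p = 1.4e-05). APLP1, a relative of the amyloid precursor protein, averaged 3.20 ± 0.0586 CPM in shCtrl and 0.905 ± 0.138 CPM in shWDR5 (SD, n = 3; log2 fold change -1.79 ± 0.21 (SE), adjusted p = 6.9e-05). DMTN, which binds actin at the red cell membrane skeleton, fell by 1.94 on the log2 scale and DDO, the oxidase of D-aspartate, by 1.87. NDRG2, a differentiation-related gene, fell by 1.83 and PIK3AP1, an adaptor of phosphoinositide 3-kinase, by 1.67. TP73-AS1, annotated as a transcribed pseudogene, fell by 1.67 and overlaps genes on the opposite strand, TP73 among them. The peroxisomal membrane protein gene PXMP4 fell by 1.66. Each of these was called in 16 of 16 alternatives. All 6 were under 5 CPM in shCtrl. The count filter that set which genes were tested covers the libraries of all 3 lines. Which libraries carried these 6 and APLP1 past it is not given here. Some of them may have passed only through shCtrl libraries. CD14, the coreceptor for lipopolysaccharide and a monocyte marker, stood at 1.86, 2.44 and 1.97 CPM in the shCtrl libraries and 0.855, 0.565 and 0.501 CPM in the shWDR5 libraries (log2 fold change -1.78 ± 0.45 (SE), adjusted p = 0.017). Its call was lost without shCtrl replicate 2, shWDR5 replicate 2 or shWDR5 replicate 3 (adjusted p = 0.058, 0.067 and 0.097). CD14 passed the count filter only through shWDR5 libraries of the 3 lines.

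Another set of genes was chosen for the smallest adjusted p and showed a narrow spread within each group. PYGL, the liver form of glycogen phosphorylase, stood at 123, 124 and 125 CPM in the shCtrl libraries and 48.0, 47.9 and 45.7 CPM in the shWDR5 libraries. The shWDR5 libraries lay within 3 CPM of each other and far below the controls (log2 fold change -1.39 ± 0.09 (SE), adjusted p = 3.4e-07). TMEM25, an immunoglobulin-like membrane protein gene, stood at 18.6, 18.8 and 17.2 CPM in the shCtrl libraries and 6.50, 7.18 and 7.77 CPM in the shWDR5 libraries (log2 fold change -1.34 ± 0.11 (SE), adjusted p = 2.1e-06). HLA-DMA, which loads peptides on MHC class II, stood at 21.7, 20.7 and 19.3 CPM in the shCtrl libraries and 7.53, 8.11 and 8.10 CPM in the shWDR5 libraries (log2 fold change -1.38 ± 0.11 (SE), adjusted p = 2.1e-06). In both, the knockdown libraries were below 9 CPM and the control libraries above 17 CPM. CD40, a receptor of the TNF receptor family, fell by 1.35 on the log2 scale, CTSF, a lysosomal cysteine protease, by 1.30, WNT3, a secreted Wnt ligand, by 1.21, KIAA1522 by 1.19 and MAPK13, the p38 delta kinase, by 1.01, with adjusted p between 2.6e-06 and 1.2e-05. TCTN2, of the ciliary transition zone, fell by 1.33 and is taken up with the cilium genes below. All 10 of these genes, WDR5 among them, were called with each library left out.

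**Figure D2:**
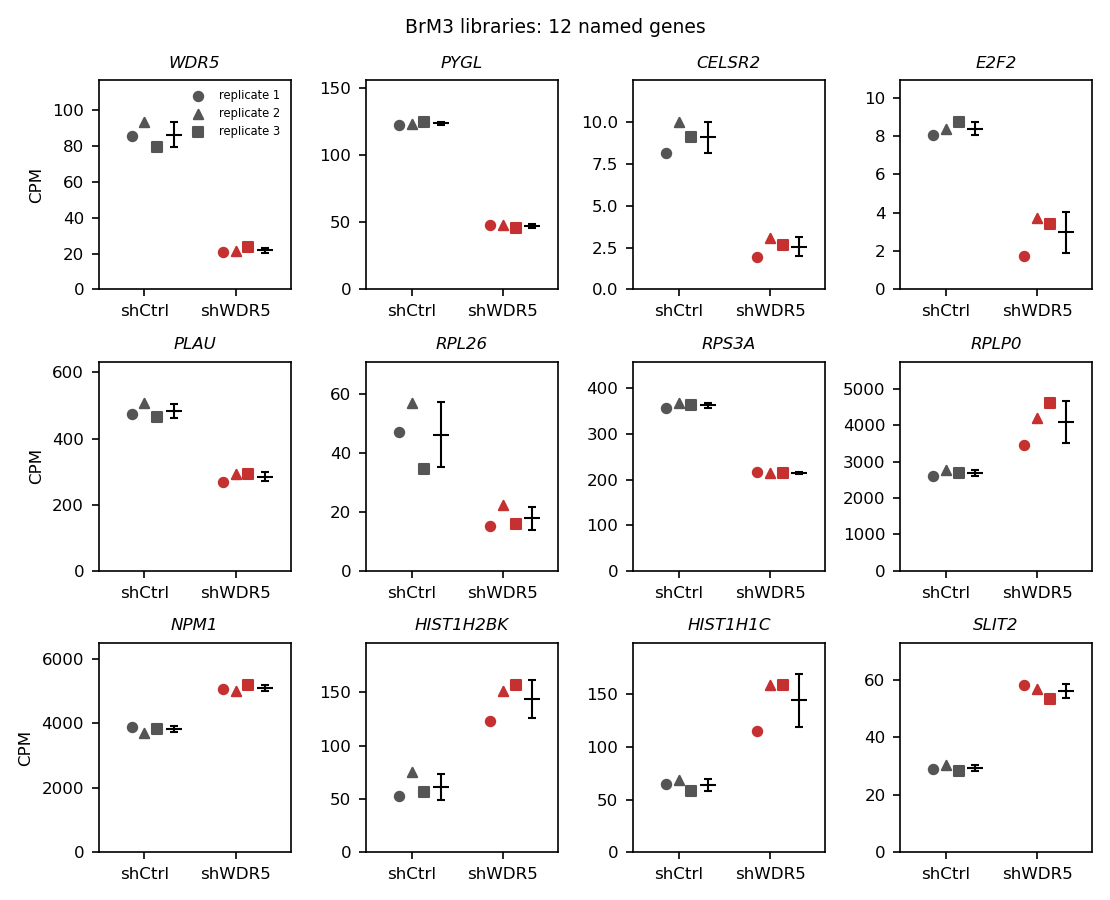
CPM in each BrM3 library (circle, triangle and square for replicates 1, 2 and 3; grey for shCtrl, red for shWDR5), with the mean and SD (n = 3) beside them; every axis starts at 0. In all 12 genes the groups were separate. Among the genes that rose, replicate 1 of shWDR5 was the lowest of its group for RPLP0 (3458), HIST1H2BK (123) and HIST1H1C (115). Among those that fell, it was the lowest for WDR5, CELSR2, E2F2, PLAU and RPL26.

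The rises were smaller and histone genes led them. The 5 called genes past 1 on the log2 scale were HIST1H2BK, HIST1H2BJ, CDH10, HIST1H1C and LINC01204. HIST1H2BK, a histone H2B gene on chromosome 6, stood at 52.6, 75.0 and 56.3 CPM in the shCtrl libraries and 123, 151 and 157 CPM in the shWDR5 libraries (log2 fold change 1.23 ± 0.25 (SE), adjusted p = 0.0042). HIST1H1C, which encodes a linker histone, stood at 65.3, 68.5 and 57.9 CPM in the shCtrl libraries and 115, 159 and 159 CPM in the shWDR5 libraries (log2 fold change 1.18 ± 0.17 (SE), adjusted p = 0.00046). Both rose in every knockdown library, with replicate 1 of shWDR5 the lowest of the knockdown libraries in each. HIST1H2BJ stood at 4.66, 4.91 and 3.98 CPM in the shCtrl libraries and 10.2, 10.4 and 11.1 CPM in the shWDR5 libraries (log2 fold change 1.23 ± 0.13 (SE), adjusted p = 2e-05). CDH10, a classical cadherin of the nervous system, stood at 2.64, 3.21 and 3.31 CPM in the shCtrl libraries and 7.41, 7.25 and 6.54 CPM in the shWDR5 libraries (log2 fold change 1.21 ± 0.23 (SE), adjusted p = 0.0037), and SLIT2, the secreted ligand of ROBO receptors, at 29.1, 30.4 and 28.3 CPM in the shCtrl libraries and 58.3, 56.8 and 53.3 CPM in the shWDR5 libraries (log2 fold change 0.94 ± 0.17 (SE), adjusted p = 0.0021). In these 3 genes the libraries of each group kept close together. LAMA2, a laminin alpha chain, rose by 0.98, XDH, xanthine dehydrogenase, by 0.97 and the long non-coding RNA LINC01204 by 1.03, all from controls under 3 CPM. LAMA2 passed the count filter, which covers the libraries of all 3 lines, only through shWDR5 libraries. Which libraries carried CDH10, XDH and LINC01204 past it is not given here, so the same limit may hold for them.

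Replication-dependent histone genes are transcribed in S phase, and most of their messengers end in a stem-loop and not in a poly(A) tail, so that a poly(A) library holds few of them. The table holds 66 such genes, of which 11 passed the count filter, and 10 of the 11 were higher and none lower in shWDR5, with a median log2 fold change of 0.87. This count cannot be read against the background of 2.87%, since 4 of the 11 passed the filter only through shWDR5 libraries of the 3 lines. The other 7 passed through shCtrl libraries and 7 of 7 were called higher. Besides the 3 above the called genes include HIST1H2AC, a histone H2A gene (35.9, 38.0 and 37.7 CPM in the shCtrl libraries and 65.5, 73.0 and 68.8 CPM in the shWDR5 libraries; log2 fold change 0.89 ± 0.12 (SE), adjusted p = 0.00019), and HIST1H4I, a histone H4 gene (log2 fold change 0.90). The 55 histone genes that did not pass summed to 10.3, 14.7 and 8.54 CPM in shCtrl and to 9.98, 12.4 and 11.9 CPM in shWDR5, values that overlapped. The log2 changes of the called genes ran from 0.60 to 1.23, and 8 to 10 were called with any 1 library left out. Of 10 tested histone genes outside replication control, H3F3B, which encodes the replacement histone H3.3, was higher (0.45) and H1F0, a linker histone gene, lower (-0.34), and the other 8 were not called. The call of H3F3B was lost without shCtrl replicate 1, and that of H1F0 was kept only without shWDR5 replicate 3. HIST1H2BK is uncertain as a single gene, because 57.2% of the distinct 50-base stretches of its annotated transcripts also occur in transcripts of other genes, against 4.22% for HIST1H2BJ and 0% for HIST1H1C.

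The 250 bases before the start site (RefSeq, GRCh38) of the leading pair of H2B genes are printed because these genes moved together. Capitals mark, on either strand, the CCAAT box, the TATA box as TATAAA, the E-box as CACGTG and the octamer of H2B promoters as ATTTGCAT. TATAAA overlaps its own reverse complement in the run near the 5′ end of both. HIST1H2BJ is now named H2BC11 and HIST1H2BK is named H2BC12.
H2BC11, chr6:27132796-27133045, minus strand: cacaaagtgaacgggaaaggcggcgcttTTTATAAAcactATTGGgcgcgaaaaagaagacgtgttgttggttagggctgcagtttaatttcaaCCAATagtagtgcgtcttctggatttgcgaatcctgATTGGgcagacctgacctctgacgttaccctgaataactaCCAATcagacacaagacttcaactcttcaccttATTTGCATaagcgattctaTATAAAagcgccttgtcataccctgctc
H2BC12, chr6:27146859-27147108, minus strand: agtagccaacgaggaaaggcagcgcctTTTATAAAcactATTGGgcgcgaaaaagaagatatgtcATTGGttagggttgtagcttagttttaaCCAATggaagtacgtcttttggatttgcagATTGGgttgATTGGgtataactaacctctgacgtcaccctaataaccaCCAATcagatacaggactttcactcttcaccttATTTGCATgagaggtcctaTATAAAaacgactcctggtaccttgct
CCAAT occurred 4 times in the first window and 6 times in the second, TATAAA 3 times in each, and the octamer once in each. Over all 35116 windows of this length 32% held the CCAAT box, 10.7% the TATA box, 6.34% the E-box and 1.63% the octamer. In the 12 windows of the 10 called histone genes these were 91.7%, 66.7%, 0% and 50%. The 65 windows of the 61 histone genes that could be matched had 84.6%, 66.2%, 0% and 41.5%, so that the called genes were close to all histone genes.

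**Figure D3:**
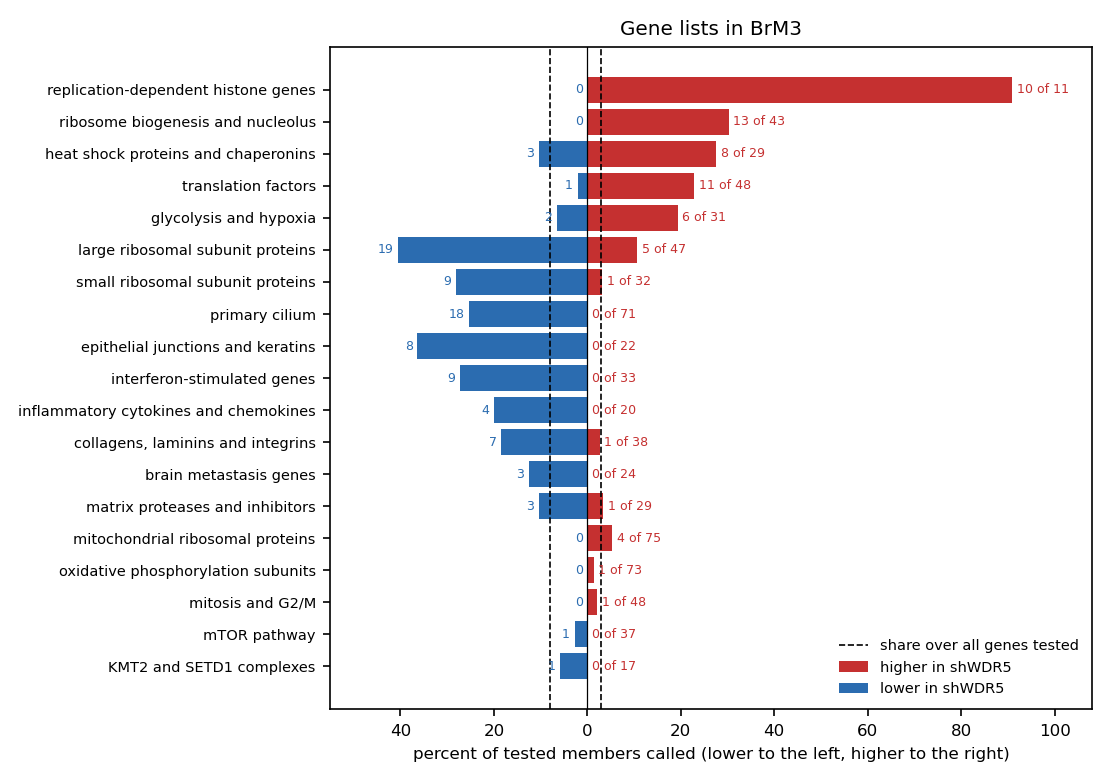
Bars give the percent of tested members of each gene list called higher (red, to the right) or lower (blue, to the left) in BrM3 shWDR5, with the counts beside them, and dashed lines the shares over all 12081 genes (2.87% higher, 7.9% lower). The large ribosomal subunit reached 19 of 47 to the left. Mitosis, mTOR and oxidative phosphorylation genes lay at or below the dashed lines, and the histone bar (10 of 11) cannot be read against them, since 4 of its genes passed the count filter only through shWDR5 libraries.

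Cytoplasmic ribosomal protein genes, which encode the structural proteins of the ribosome, changed in both directions. Of 79 such genes 28 (35.4%) were lower, beside 7.9% of all genes, 6 (7.59%) were higher, beside 2.87%, and 45 were not called. The study named this group from these samples, so the count is no independent evidence of its direction. The median log2 fold change was -0.22, and the summed level did not separate the groups, at 51830, 55767 and 50994 CPM in shCtrl and 45927, 53912 and 55569 CPM in shWDR5. The large subunit had 19 of 47 lower and 5 higher with a median of -0.40, and the small subunit 9 of 32 lower and 1 higher with a median of 0.18. All 19 passed the count filter through shWDR5 libraries. So did 8 of the 9, the other only through shCtrl libraries. Without replicate 1 of shWDR5 24 were lower and 11 higher. With each library left out in turn 22 to 25 were lower, and 21 genes were lower in all of them. The number higher was 3 without shCtrl replicate 1, 2 or 3, 4 without shWDR5 replicate 2 and 2 without shWDR5 replicate 3.

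RPL26 fell the most of the large subunit and stood at 47.2, 56.8 and 34.7 CPM in the shCtrl libraries and 15.3, 22.3 and 15.9 CPM in the shWDR5 libraries (log2 fold change -1.37 ± 0.25 (SE), adjusted p = 0.002). RPS3A, of the small subunit, had the smallest adjusted p of the family and stood at 357, 367 and 364 CPM in the shCtrl libraries and 217, 214 and 214 CPM in the shWDR5 libraries (log2 fold change -0.75 ± 0.10 (SE), adjusted p = 0.00013). The 3 knockdown libraries of RPS3A were within 4 CPM of each other, whereas RPL26 varied in both groups. RPL5, which joins RPL11 and the 5S RNA in the particle that binds MDM2, stood at 1127, 1129 and 1161 CPM in the shCtrl libraries and 782, 755 and 738 CPM in the shWDR5 libraries (log2 fold change -0.59 ± 0.11 (SE), adjusted p = 0.0023). RPL7, RPL29, RPL31, RPL34, RPS24 and RPS14 fell by 0.78, 0.93, 0.76, 0.81, 0.81 and 0.67 on the log2 scale. RPS10 also fell, with a log2 change of -1.01, at levels under 5 CPM that are low for this family. Of its 50-base stretches 28.4% also occur in other genes, pseudogenes included, beside 11.8% for RPL26, 27% for RPS3A and 12.4% for RPLP0, so that values of single ribosomal protein genes are uncertain. Among the 6 that rose, RPLP0, of the ribosomal stalk, stood at 2608, 2757 and 2682 CPM in the shCtrl libraries and 3458, 4200 and 4595 CPM in the shWDR5 libraries (log2 fold change 0.61 ± 0.12 (SE), adjusted p = 0.0031). RPL14 rose by 0.48. These 2 were called with each library left out, whereas RPL27A, RPL21, RPSA and RPL4 were called in only 3, 3, 1 and 2 of the 6 such fits (adjusted p up to 0.1). The call of each of the 4 was lost without shWDR5 replicate 3.

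**Figure D4:**
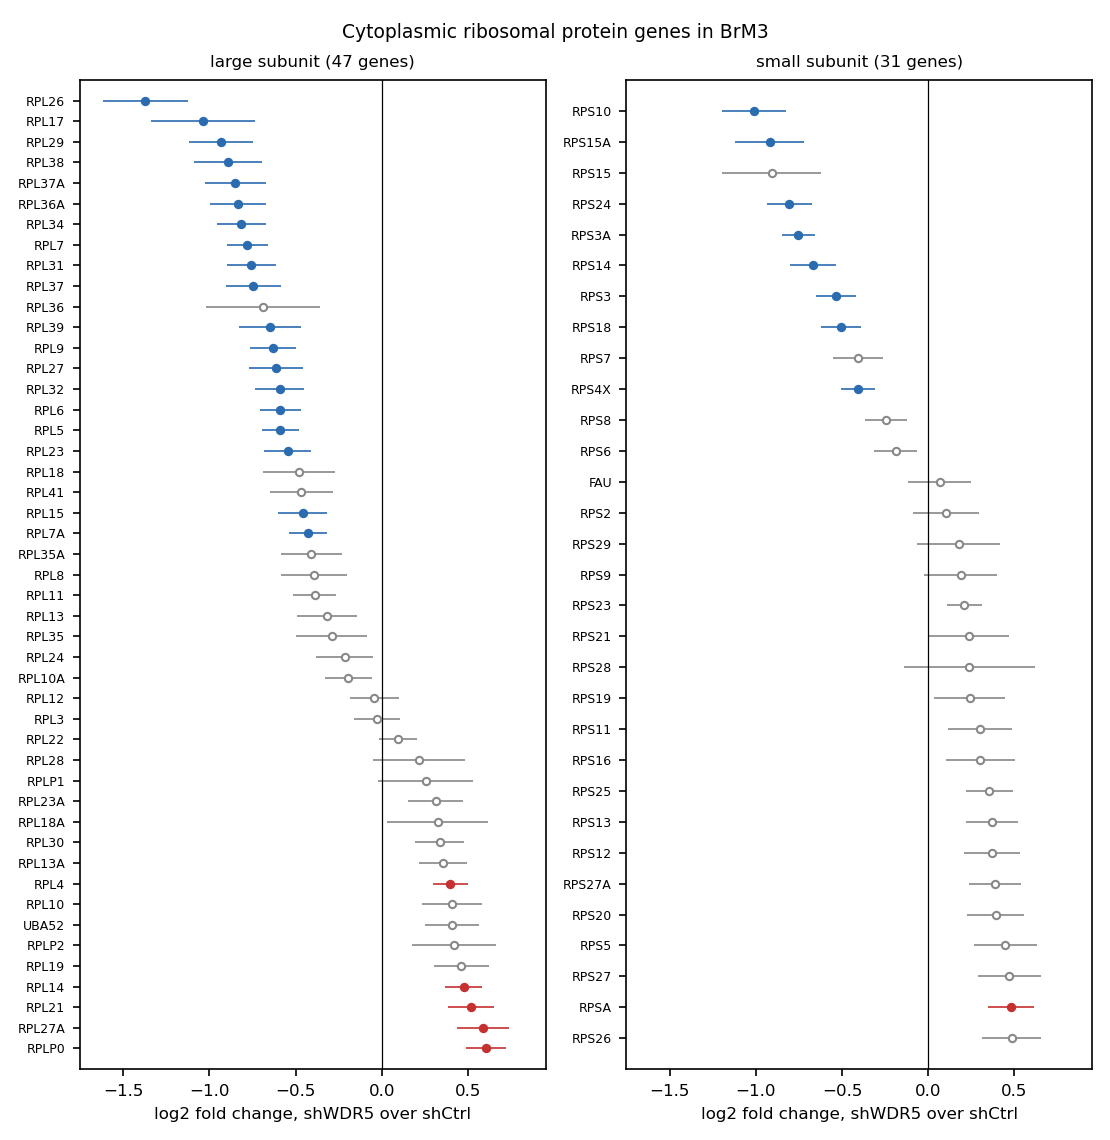
Log2 fold change (point) and SE (bar) of the 47 large subunit genes and 31 of the 32 small subunit genes in BrM3, ordered within each subunit, filled blue where called lower, filled red where called higher and open where not called. RPL26 (-1.37) and RPLP0 (0.61) mark the ends of the large subunit, and uncalled genes of the small subunit crowd the right side.

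The promoter windows of the genes at those ends are printed for comparison, marked as before, 250 bases before the start site.
RPL26, chr17:8383194-8383443, minus strand: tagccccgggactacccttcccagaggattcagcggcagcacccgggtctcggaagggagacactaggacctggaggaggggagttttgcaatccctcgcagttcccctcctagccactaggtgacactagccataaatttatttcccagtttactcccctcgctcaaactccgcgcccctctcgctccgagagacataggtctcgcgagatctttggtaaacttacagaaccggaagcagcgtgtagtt
RPLP0, chr12:120201112-120201361, minus strand: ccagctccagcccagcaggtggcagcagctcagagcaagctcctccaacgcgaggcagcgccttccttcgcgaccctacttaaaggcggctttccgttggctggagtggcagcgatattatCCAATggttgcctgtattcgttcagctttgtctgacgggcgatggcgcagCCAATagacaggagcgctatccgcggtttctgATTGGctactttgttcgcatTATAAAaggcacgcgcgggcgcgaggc
The RPL26 window held none of the letters searched, and that of RPLP0 held CCAAT 3 times and TATAAA once. RefSeq windows were matched for 22 of the 28 lower ribosomal protein genes and for 41 of the other 51. CCAAT was found in 5 of 28 windows (17.9%) of the lower genes and in 18 of 50 (36.0%) of the others, beside 32% of all windows.

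Genes that make ribosomes were higher where they were called. Of 43 tested ribosome biogenesis and nucleolar genes 13 (30.2%) were higher and none lower, beside 2.87% of all genes, with a median log2 fold change of 0.30. NPM1, an abundant nucleolar chaperone, stood at 3894, 3720 and 3842 CPM in the shCtrl libraries and 5078, 5010 and 5198 CPM in the shWDR5 libraries (log2 fold change 0.42 ± 0.08 (SE), adjusted p = 0.0041). Each knockdown library was above each control. NOP56, of the box C/D small nucleolar particle, rose by 0.48, NIP7, of large subunit assembly, by 0.49, WDR43, of the small subunit processome, by 0.44, and POLR1E, a subunit of RNA polymerase I, by 0.39. Leaving out a library changed the count to 7 without shCtrl replicate 1, 7 without shCtrl replicate 2, 6 without shCtrl replicate 3, 7 without shWDR5 replicate 2, 5 without shWDR5 replicate 3 and 14 without shWDR5 replicate 1. Translation factors had 11 of 48 (22.9%) higher, beside 2.87%, and 1 lower (median 0.22). PABPC1, the cytoplasmic poly(A)-binding protein, rose by 0.42 and its relative PABPC4 by 0.36. The 1 that fell was EIF4G3, a scaffold of the cap-binding complex, which stood at 129.7, 120.5 and 124 CPM in the shCtrl libraries and 80.3, 70.6 and 74.9 CPM in the shWDR5 libraries (log2 fold change -0.73 ± 0.09 (SE), adjusted p = 7.9e-05). The 11 became 2, 4 and 3 without shCtrl replicates 1, 2 and 3, 5 and 3 without shWDR5 replicates 2 and 3, and 12 without shWDR5 replicate 1. Of 75 mitochondrial ribosomal protein genes 4 (5.33%) were higher, beside 2.87% of all genes, and none lower, beside 7.9%. The 4 became 0 without any 1 shCtrl replicate or shWDR5 replicate 3, 1 without shWDR5 replicate 2 and 4 without shWDR5 replicate 1. Of 37 mTOR pathway genes 1 (2.7%) was lower, under the 7.9% of all genes, and with GC offsets 5 were higher and 2 lower.

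Chaperone genes were called in both directions. Of 29 heat shock and chaperonin genes 8 (27.6%) were higher, beside 2.87% of all genes, and 3 (10.3%) lower, near the 7.9% of all genes. Of these 3, 2 passed the count filter through shWDR5 libraries and the other only through shCtrl libraries. The 8 became 3 without any 1 shCtrl replicate or shWDR5 replicate 3, 4 without shWDR5 replicate 1 and 6 without shWDR5 replicate 2. HSP90AB1, the constitutive cytosolic HSP90, averaged 3204 ± 122 CPM in shCtrl and 4481 ± 419.6 CPM in shWDR5 (SD, n = 3; log2 fold change 0.48 ± 0.10 (SE), adjusted p = 0.0047). The CCT chaperonin is a ring that folds actin and tubulin. CCT7 stood at 588, 610.3 and 610.5 CPM in the shCtrl libraries and 326, 360.1 and 398 CPM in the shWDR5 libraries (log2 fold change -0.74 ± 0.10 (SE), adjusted p = 0.00027), and CCT4 fell by 0.50, whereas CCT3 rose by 0.37. The call of CCT3 was kept in 15 of 16 alternatives, being lost without shWDR5 replicate 3 (adjusted p = 0.061), and those of CCT7 and CCT4 in 16 of 16. Of 31 glycolysis and hypoxia genes 6 (19.4%) were higher, beside 2.87% of all genes, and 2 (6.45%) lower, under the 7.9% of all genes. The 6 became 2, 5 and 1 without shCtrl replicates 1, 2 and 3, and 7, 2 and 1 without shWDR5 replicates 1, 2 and 3. PGK1, a kinase of glycolysis, rose by 0.34 and was called with each library left out. GAPDH, often used as a reference gene, stood at 2725, 2936 and 2624 CPM in the shCtrl libraries and 3021, 3914 and 4201 CPM in the shWDR5 libraries (log2 fold change 0.43 ± 0.12 (SE), adjusted p = 0.025). Its call was lost without shCtrl replicate 1 or 3 and without shWDR5 replicate 2 or 3 (adjusted p = 0.08, 0.1, 0.094 and 0.13), and replicate 1 of shWDR5 was the nearest to the controls.

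Primary cilium genes were lower wherever they were called. The primary cilium is a single sensory projection built on a centriole, whose parts are carried by intraflagellar transport and sorted at the transition zone. Of 71 tested genes 18 (25.4%) were lower and none higher, beside 7.9% lower over all genes, 63 of 71 had a negative log2 fold change, and the median was -0.24. Of the 18, 16 passed the count filter through shWDR5 libraries of the 3 lines and the others only through shCtrl libraries. An enrichment list of the study also named cilium genes from these samples, so this too is no independent evidence. TCTN2 stood at 6.76, 6.45 and 6.13 CPM in the shCtrl libraries and 2.28, 2.49 and 2.84 CPM in the shWDR5 libraries (log2 fold change -1.33 ± 0.13 (SE), adjusted p = 1.2e-05), and TCTN1, its partner at the transition zone, at 7.85, 7.09 and 8.15 CPM in the shCtrl libraries and 3.48, 3.59 and 3.14 CPM in the shWDR5 libraries (log2 fold change -1.18 ± 0.13 (SE), adjusted p = 4.9e-05). TTC30A, an intraflagellar transport protein, stood at 2.76, 2.49 and 3.23 CPM in the shCtrl libraries and 1.20, 1.06 and 0.81 CPM in the shWDR5 libraries (log2 fold change -1.51 ± 0.22 (SE), adjusted p = 0.00048). In each of the 3 every knockdown library lay below every control. MKS1 fell by 0.71, CLUAP1 by 0.75, IFT27 by 0.72 and IFT43 by 0.93. The count was 26 without shWDR5 replicate 1 and 12 to 18 without 1 of the others (12 without shCtrl replicate 1), and it rose to 36, with 1 gene higher, when the dependence of each library on GC content was removed.

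Genes of the cell surface, matrix and innate immunity were mostly lower where they were called. Interferon-stimulated genes had 9 of 33 lower (27.3%, beside 7.9% of all genes) and none higher, but 3 were higher without replicate 1 of shWDR5, where 9 were lower, and 3 with GC offsets, where 12 were lower. Of the 9 in the joint fit, 8 passed the count filter through shWDR5 libraries and the other only through shCtrl libraries. OAS1, which makes the activator of RNase L, stood at 4.84, 4.09 and 3.88 CPM in the shCtrl libraries and 2.45, 1.83 and 1.41 CPM in the shWDR5 libraries (log2 fold change -1.22 ± 0.19 (SE), adjusted p = 0.0007). OASL fell by 1.04, OAS2 by 0.79, OAS3 by 0.74, MX1, which blocks incoming viruses, by 0.74 and IFIT1 by 0.62. The other 24, among them genes with positive values, were not called, and the count stayed between 6 and 9 with any 1 library left out (6 without shCtrl replicate 2, shCtrl replicate 3 or shWDR5 replicate 3). Epithelial junction and keratin genes had 8 of 22 lower (36.4%, beside 7.9%) and none higher. Without replicate 1 of shWDR5 6 were lower and 1 higher, and with GC offsets 12 and 2. DSC2, a desmosomal cadherin, stood at 7.07, 5.76 and 6.26 CPM in the shCtrl libraries and 3.36, 3.19 and 3.24 CPM in the shWDR5 libraries (log2 fold change -0.97 ± 0.15 (SE), adjusted p = 0.00069). EPCAM, an epithelial adhesion molecule, fell by 0.77, CLDN7, of tight junctions, by 0.85, F11R, of which 35.9% of the 50-base stretches also occur in other genes, by 0.95 and the keratin genes KRT7 and KRT80 by 0.75 and 0.54. Of 38 collagen, laminin and integrin genes 7 were lower (18.4%, beside 7.9%) and 1 higher (2.63%, beside 2.87%), LAMA2, which passed the filter only through shWDR5 libraries. LAMB1, a laminin beta chain, fell by 0.49, ITGA10 by 0.91 and ITGA5, of the fibronectin receptor, by 0.48. The 7 became 6 without shWDR5 replicate 1, 3 without shCtrl replicate 2 and 4 without shCtrl replicate 3, shWDR5 replicate 2 or shWDR5 replicate 3. PLAU, the urokinase that activates plasminogen, stood at 474, 506 and 467 CPM in the shCtrl libraries and 269, 293 and 294 CPM in the shWDR5 libraries (log2 fold change -0.76 ± 0.09 (SE), adjusted p = 4.9e-05), and ADAMTS1, a metalloprotease, rose by 0.89. TNFAIP2, a gene induced by TNF, fell by 0.75.

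A list of 24 tested genes tied to brain metastasis had 3 members lower and none higher, 12.5% beside 7.9% of all genes, with a median log2 fold change of -0.09. CTSS, a cathepsin tied to passage of the blood-brain barrier, stood at 10.2, 8.51 and 7.97 CPM in the shCtrl libraries and 5.70, 4.39 and 4.76 CPM in the shWDR5 libraries (log2 fold change -0.86 ± 0.21 (SE), adjusted p = 0.015). LAMA4 (-0.46) and TNFSF10, the death ligand TRAIL (-0.58), were the other two. The call of CTSS was lost without shCtrl replicate 1, shWDR5 replicate 2 or shWDR5 replicate 3 (adjusted p = 0.07, 0.074 and 0.067). LAMA4 and TNFSF10 were called only without shWDR5 replicate 1 and lost without each of the other 5 (adjusted p between 0.069 and 0.2). None of the 24 was called with each library left out in turn.

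Cell cycle genes were called at shares near or under those of all genes. Of 48 mitosis genes 1 (2.08%) was higher and none lower, beside 2.87% higher and 7.9% lower over all genes. Of 50 DNA replication genes 2 (4%) were higher and 3 (6%) lower. Without replicate 1 of shWDR5 2 mitosis genes were higher, and 3 DNA replication genes were higher and 2 lower, while no gene of either list was higher without any 1 of the other libraries. E2F2, an activator of S phase genes, stood at 8.07, 8.38 and 8.74 CPM in the shCtrl libraries and 1.77, 3.72 and 3.43 CPM in the shWDR5 libraries (log2 fold change -1.45 ± 0.19 (SE), adjusted p = 0.00017), and replicate 1 of shWDR5 had the lowest value. Of 15 BCL2 family genes, which govern apoptosis, and of 5 H3K4 demethylase genes none was called, beside 10.8% of all genes. In the BCL2 family, however, 1 was higher without replicate 1 of shWDR5, and 4 were higher and 1 lower with GC offsets. In the joint fit neither list contained a member past 0.55 in size on the log2 scale. Of 73 oxidative phosphorylation genes 1 was higher (1.37%, beside 2.87%), and 2 without replicate 1 of shWDR5.

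Genes that mark other cell types moved at low levels. The summed level of 6 fibroblast markers was 9.56 to 12.1 CPM in shCtrl and 3.82 to 6.15 CPM in shWDR5, almost all of it COL1A1 and PDGFRB. PDGFRB stood at 2.08, 2.31 and 2.35 CPM in the shCtrl libraries and 0.741, 1.33 and 1.16 CPM in the shWDR5 libraries (log2 fold change -1.01 ± 0.20 (SE), adjusted p = 0.0043), while COL1A2, DCN and LUM were under 0.1 CPM throughout. Of 7 immune markers 3 were at 0 in all libraries and the sum, 2.78 to 3.32 CPM in shCtrl and 1.39 to 1.88 CPM in shWDR5, came mainly from CD14 and PTPRC. CD14 fell, as given above, whereas every knockdown library of PTPRC lay above every control. PTPRC stood at 0.72, 0.64 and 0.72 CPM in the shCtrl libraries and 0.97, 1.03 and 0.77 CPM in the shWDR5 libraries. Of 6 neural and glial markers GFAP stood at 2.55, 3.19 and 2.64 CPM in the shCtrl libraries and 1.48, 0.964 and 1.06 CPM in the shWDR5 libraries (log2 fold change -1.30 ± 0.19 (SE), adjusted p = 0.00047), with OLIG2 at 0. SNAP25, the other tested marker of this list, was not called and its groups overlapped. It stood at 2.575, 2.236 and 2.716 CPM in the shCtrl libraries and 2.338, 1.895 and 2.45 CPM in the shWDR5 libraries. The 4 endothelial markers summed to 17.8 to 20.1 CPM in shCtrl and to 23.1 to 23.6 CPM in shWDR5, mainly KDR. The part of other cells in these values was not tested.

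The same knockdown in LM2 and BoM was used for comparison. Of the 954 genes lower in BrM3, 429 were called lower in LM2 (45.0% of the BrM3 list and 74.2% of the LM2 list) and 757 in BoM (79.4% and 58.5%). Of the 347 that rose, 103 were called higher in LM2 (29.7% and 57.9%) and 196 in BoM (56.5% and 30.1%). Over all genes 4.78% were lower and 1.47% higher in LM2, and 10.7% were lower and 5.39% higher in BoM. A call in 1 line and not in another does not show a difference, so the BrM3 log2 fold change was tested against the mean of LM2 and BoM. No gene passed (0 of 12081, 281 or 2.33% at an unadjusted p under 0.05), while DESeq2 called 1, ARMCX2. ARMCX2, an X-linked armadillo repeat gene, stood at 135, 132 and 135 CPM in the shCtrl libraries and 103, 104 and 111 CPM in the shWDR5 libraries (log2 fold change -0.34 ± 0.08 (SE), adjusted p = 0.013), and its change was -1.12 ± 0.08 in LM2 and -0.70 ± 0.08 in BoM, a difference of 0.57 ± 0.10 (SE, adjusted p = 0.3). Its call within BrM3 was lost without shCtrl replicate 3 or shWDR5 replicate 2 (adjusted p = 0.05 and 0.054). NYNRIN, which carries a nuclease domain, fell by 1.14 in BrM3 and changed by -1.34 ± 0.21 in LM2 and -2.83 ± 0.19 in BoM (difference 0.95 ± 0.20, adjusted p = 0.89). The change of CDH10 was -2.09 ± 1.49 in LM2 and 0.87 ± 0.33 in BoM, and its difference of 1.82 had an unadjusted p of 0.065. WDR5 changed by -2.43 ± 0.14 in LM2 and -2.24 ± 0.14 in BoM, so that the knockdown in BrM3 was the smallest of the 3 in size (difference 0.36 ± 0.16, unadjusted p = 0.043, adjusted p = 1).

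**Figure D5:**
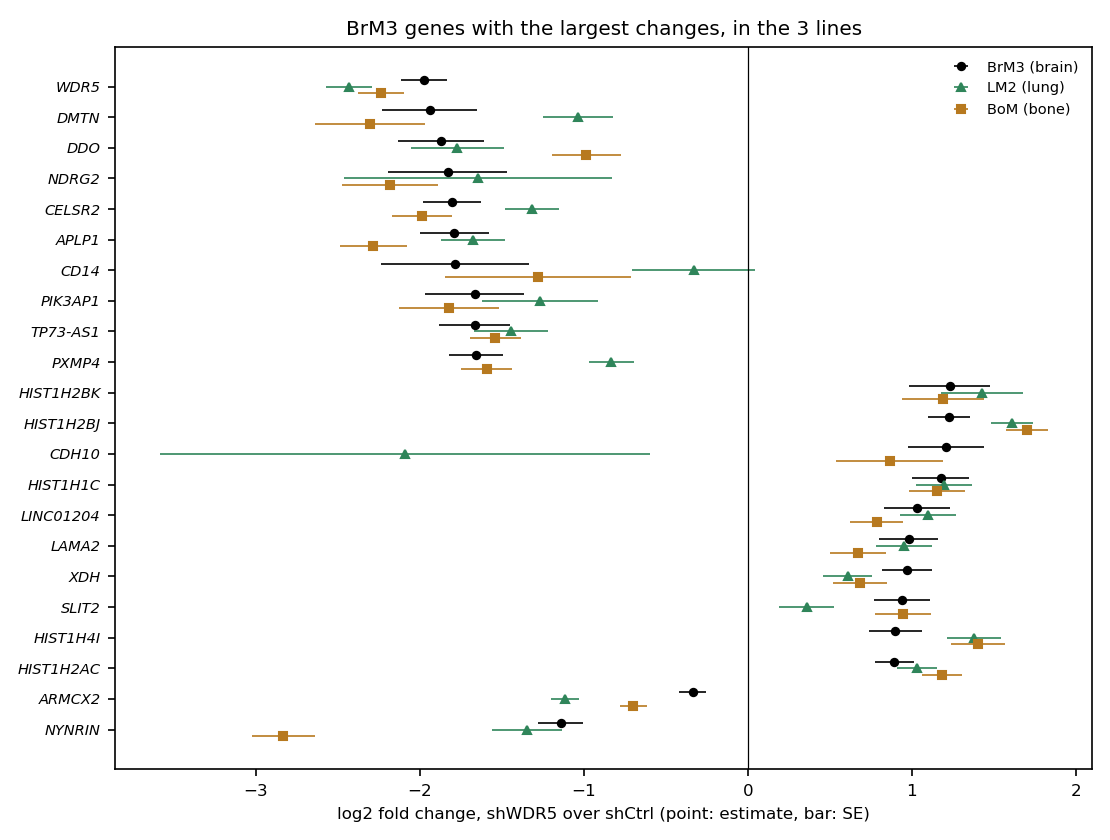
Log2 fold change (point) and SE (bar) in BrM3, LM2 and BoM for the 10 genes that fell most and the 10 that rose most in BrM3, and for ARMCX2 and NYNRIN. The 10 and 10 were taken among called genes with at least 1 CPM in the higher group and groups that did not overlap. The 3 lines fall on the same side of 0 for every gene but CDH10, whose LM2 value (-2.09 ± 1.49) is uncertain.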

How the data were processed

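Polyadenylated RNA of 18 samples was sequenced in pairs of reads from stranded libraries. Per the labels and the study's methods the authors processed reads with CASAVA 1.8.2 and STAR 2.7.0 on hg38 and deposited raw read counts per gene, the unit used here. Whether counting used strand is not given in the sources used here, and 64 of 159 named genes overlap a gene on the opposite strand, so their reads could be shared. A second deposited table holds DESeq2 log2 fold changes and adjusted p-values per line and was not used. RNA spike-ins were added. The study normalized to them and reported that global RNA levels did not change after 3 days of induction. The deposited counts hold no spike-in row, so all changes given here are relative to the library.

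Samples were grouped by title. The source labels of some samples name another tissue than their titles and were not used. Gene lists, members and named genes were chosen with earlier results of these data known. Genes whose highest normalized count passed 146, a threshold set by the HTSFilter criterion (the filter of the study's methods, recomputed), were kept (12081 of 58815). One edgeR 4.0.16 quasi-likelihood model (R 4.3.3, TMM, robust, 6 groups, 18 libraries, 12 residual degrees of freedom) was fitted, and a gene was called at a Benjamini-Hochberg adjusted p under 0.05 over all genes tested. The SE is the log2 fold change divided by the root of F. The named genes were WDR5, the 10 largest falls and 10 largest rises among called genes with at least 1 CPM in the higher group and groups that did not overlap, the 10 smallest adjusted p, up to 6 called members of each list in each direction, and the 2 genes with the smallest p for the difference between lines; further list members are named by value alone. The fit was tested on simulated data first. Alternatives were DESeq2 1.42.0, RLE scaling, 2 other filters, BrM3 alone, GC offsets, a replicate block, thinning to 17485841 counts, and each of the 6 libraries left out. P-values measure the spread between replicates of different passages. The GENCODE 44 annotation of GRCh38 gave gene positions. A few list members, although counted, are not reported here by name.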

Additional observations from a re-analysis of the deposited data

How the results depend on the processing

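Of the 158 named genes besides WDR5, 92 kept their call in all 16 alternatives, 66 lost it in at least 1 and 0 reversed. Genes called higher numbered 1068 with DESeq2 on BrM3 alone, 540 with edgeR on BrM3 alone, 638 with DESeq2, 906 with GC offsets, 777 with the replicate block, 1552 with both, and 118 to 442 with 1 library left out. Genes called lower numbered 1720 with GC offsets, 1531 with the replicate block, 2308 with both, and 592 to 988 with 1 library left out. Rises of at least 1 on the log2 scale numbered 20 under filterByExpr and 20 with no filter, and such falls 438 and 489. Genes whose groups did not overlap numbered 2966 up and 4426 down with no filter, where more genes are tested, and 2138 to 3403 up and 2655 to 3834 down with 1 library left out, where fewer libraries must separate. Ribosomal protein genes called higher numbered 18 and 14 in BrM3 alone with DESeq2 and edgeR, 21 with no filter, 13 with the replicate block, 14 with the block and GC offsets, and 2 to 11 with 1 library left out. Cilium genes called lower numbered 36 with GC offsets and 42 with the block too. Ribosome biogenesis genes called higher numbered 23 in BrM3 alone with DESeq2, 24 with GC offsets, 22 with the replicate block, 28 with both, and 5 to 14 with 1 library left out. For the difference between lines DESeq2 called 1 gene, ARMCX2, and no filter gave 2, CCL2 and TMSB4XP4, named after their values were seen. Except where stated, the cause was not tested.

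The replicate numbers do not mark a shared passage in the labels. Deviations of same-numbered BrM3 samples correlated at 0.546, 0.515 and -0.178, so the numbers were not taken to pair them and the block stayed an alternative. Shallow libraries limit genes near 1 CPM most.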

Other observations

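Single members of other gene lists were called with each library left out. PPP1R15A, the stress-induced phosphatase subunit that acts on eIF2, rose by 0.70 (log2), HNRNPAB and HNRNPC, which bind nuclear RNA, by 0.47 and 0.40, and MLX, a dimer partner in the MYC network, by 0.36. LTBP3, which binds latent TGF-beta, fell by 1.30, HLA-F, a non-classical MHC class I gene, by 1.32, the snoRNA host gene SNHG15 by 0.90, HSD17B7, of cholesterol synthesis, by 0.81 and the calcium-binding protein gene S100A4 by 0.52. SNHG29, another snoRNA host gene, rose by 0.44.

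Counts over whole lists stand beside 2.87% higher and 7.9% lower over all genes. Splicing factors of the SR and hnRNP families had 3 of 34 higher (8.82%) and the MYC network 1 of 11 (9.09%). The unfolded protein response had 1 of 30 higher and 1 lower (3.33% each), and the TGF-beta pathway 1 of 28 higher and 1 lower (3.57% each). MHC class I presentation had 1 of 15 lower (6.67%), HLA-F, which passed the count filter only through shCtrl libraries. Proteasome subunits had 2 of 41 higher (4.88%, beside 2.87%). The 2 became 7 without shWDR5 replicate 1, 1 without shCtrl replicate 2 or shWDR5 replicate 2, and 0 without each of the other libraries. Inflammatory genes had 4 of 20 lower (20%, beside 7.9%). The count was 1 without shWDR5 replicate 3 and 2 without shCtrl replicate 2, shCtrl replicate 3 or shWDR5 replicate 1. It was 3 without shWDR5 replicate 2 and 4 without shCtrl replicate 1.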
